A study of Mus musculus with 12 samples.

Results

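The genes described here are 8 markers used to tell first-order from higher-order nuclei of the thalamus: Tnnt1, Scn4b, Necab1, Calb1, Calb2, Sox5, Cck and Gpr4. They were chosen by symbol, with no measured value in the rule but with earlier results of these data known. They were followed through 12 bulk RNA libraries of mouse thalamus at postnatal day 0. All 8 were found among the 55359 genes counted. The tissue was cut by hand from the face region of the somatosensory relay, the ventroposterior medial nucleus. Its ALBSF part is the one reached by input from the upper lip, and its PMBSF part is the one reached by input from the whisker pad. The groups were embWPC ALBSF (upper lip part of pups given the treatment that the labels name embWPC and do not spell out), Ctrl PMBSF (whisker pad part of control pups) and Ctrl ALBSF (upper lip part of control pups), with 4 libraries in each. Every library was made from a pool of 5 brains, so the spread given below is that between pools, and no strain, sex or allele is given in the labels.

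First-order nuclei of the thalamus, among them the ventroposterior medial nucleus, receive their main driving input from the sense organs through the brainstem or retina and pass it to primary sensory cortex. Higher-order nuclei, such as the posterior medial nucleus beside it, are driven largely by the cortex. Relay neurons of adult first-order nuclei are known for fast-firing channels and for Tnnt1, the slow skeletal muscle troponin T, which many studies use as a label of these nuclei. Necab1 and Calb1 are used as labels of higher-order and matrix-type relay neurons, and Calb2 as a label of midline and intralaminar nuclei. Sox5, Cck and Gpr4 are described after them without being placed on either side.

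Tnnt1 and Scn4b are the markers on the first-order side, and they had very different levels in this tissue, so their promoters are shown. Each runs from 250 bases before the RefSeq transcription start to 50 bases after it, on GRCm38.p6. The first RefSeq promoter listed for each gene was used. Its 50 bases after the start were found as an unbroken stretch in 2 GENCODE transcripts of Scn4b and in 0 of Tnnt1. Capitals mark matches to TATAAA (the TATA box), CCAAT or GGGCGG (the GC box) on either strand.
Tnnt1: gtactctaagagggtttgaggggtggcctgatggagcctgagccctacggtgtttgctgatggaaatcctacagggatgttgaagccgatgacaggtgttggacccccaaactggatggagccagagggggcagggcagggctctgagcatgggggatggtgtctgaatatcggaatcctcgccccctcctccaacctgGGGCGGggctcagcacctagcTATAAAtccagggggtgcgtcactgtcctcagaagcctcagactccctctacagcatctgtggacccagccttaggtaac
Scn4b: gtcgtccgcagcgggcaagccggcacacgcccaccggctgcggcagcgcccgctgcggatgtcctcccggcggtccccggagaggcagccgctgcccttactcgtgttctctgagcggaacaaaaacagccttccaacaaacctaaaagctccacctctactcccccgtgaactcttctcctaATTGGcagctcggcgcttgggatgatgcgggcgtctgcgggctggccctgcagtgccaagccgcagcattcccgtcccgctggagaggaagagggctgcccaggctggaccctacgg
The Tnnt1 promoter lies at chr7:4515926-4516225 on the minus strand. It holds a TATAAA match whose first base is at -30 from the start, and a GGGCGG match at -51. TATAAA was found in 13.6% and GGGCGG in 35.7% of 32851 RefSeq promoters of the same length. The Scn4b promoter lies at chr9:45138374-45138673 on the plus strand. It holds a CCAAT match on the other strand, read as ATTGG, at -67, and CCAAT was found in 37.4% of the promoters. GC content was 58.3% with 6 CpG sites for Tnnt1 and 66.3% with 26 CpG sites for Scn4b, against medians of 52.7% and 7 over all promoters. Neither promoter held AGGTCA, the core letters bound by ROR nuclear receptors, which was found in 16.3% of promoters. These matches describe the letters only, and binding was not measured.

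The library totals lay between 31712820 and 33702453 counts for embWPC ALBSF, between 31921767 and 34512840 for Ctrl PMBSF, and between 28457046 and 31850727 for Ctrl ALBSF. Values are given as CPM, counts scaled to the same total in every library, and fold changes come from an edgeR fit over all 12 libraries and 17501 genes. Slc17a6, the vesicular glutamate transporter of relay neurons, stood at 336.1 to 435.4 CPM across the libraries. Per kilobase of exon, Cck had the highest level of the 8 genes with a mean of 286 CPM per kb over the 12 libraries. Calb2 followed with 15.7, Tnnt1 with 9.53, Sox5 with 3.05, Calb1 with 1.52, Necab1 with 0.826, Gpr4 with 0.708 and Scn4b with 0.00362 CPM per kb. Cck stood above and Scn4b below all the others in every library, while the ranges over libraries of the other neighbours in that order overlapped.

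**Figure D1:**
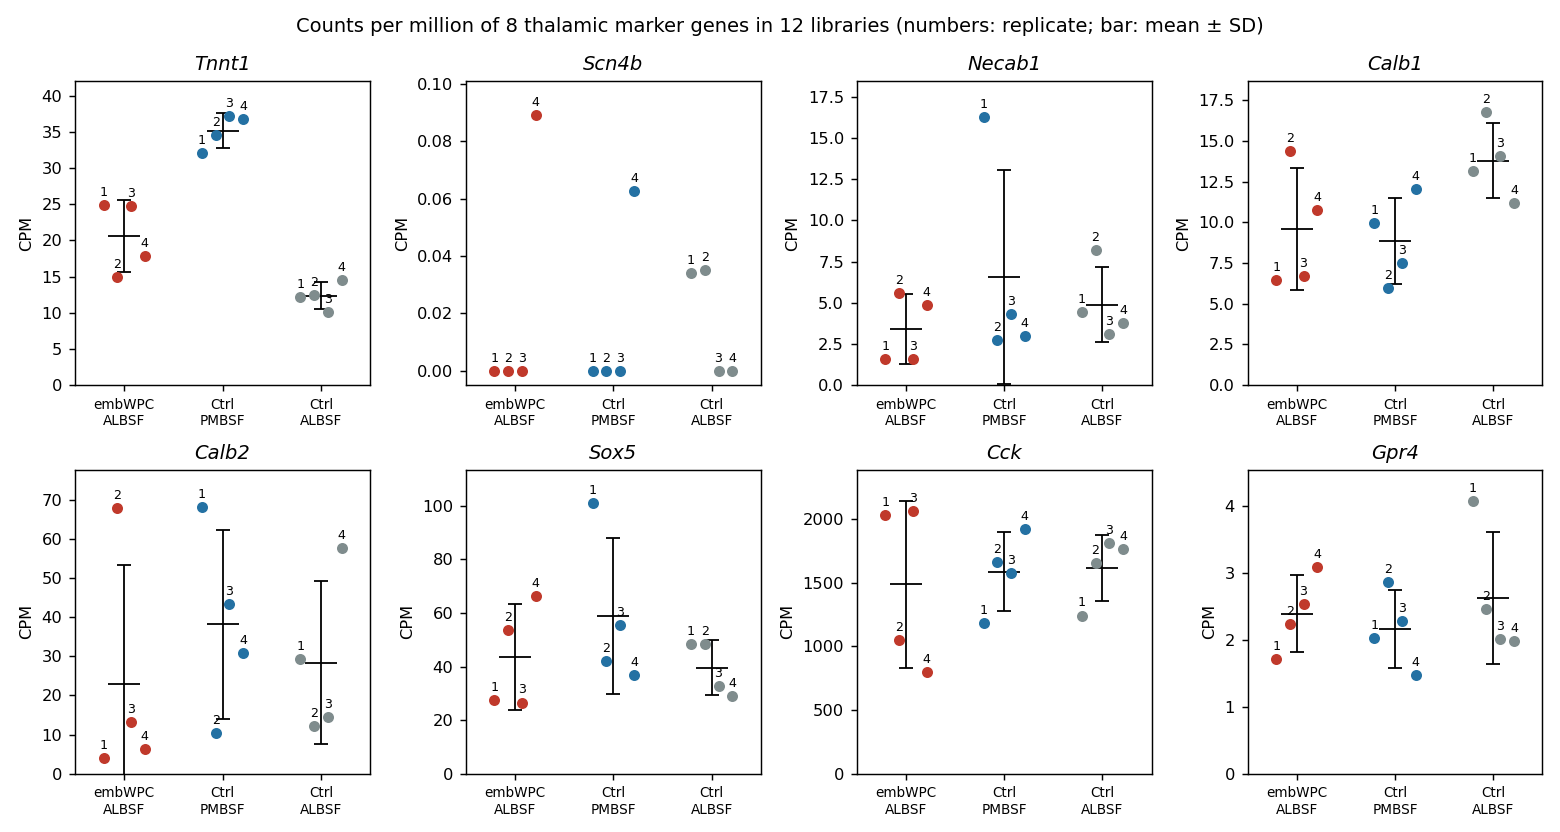
Expression of the 8 genes in CPM in each library, with embWPC ALBSF left, Ctrl PMBSF in the middle and Ctrl ALBSF right; points are libraries and bars are the mean and SD of 4 (none for Scn4b). The groups are apart for Tnnt1 only, at 14.9 to 24.9 CPM in embWPC ALBSF, 32.1 to 37.3 CPM in Ctrl PMBSF and 10.0 to 14.6 CPM in Ctrl ALBSF, and Scn4b is at 0 in 8 of 12 libraries.

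Tnnt1 was the member that separated the groups. The gene lies at chr7:4507567-4519381 on the minus strand of GRCm39. It had 24.9, 14.9, 24.8 and 17.9 CPM in the embWPC ALBSF libraries, 32.1, 34.6, 37.3 and 36.8 CPM in Ctrl PMBSF, and 12.2, 12.5, 10.0 and 14.6 CPM in Ctrl ALBSF. In CPM, every Ctrl PMBSF library was above every embWPC ALBSF library, and every embWPC ALBSF library was above every Ctrl ALBSF library. The closest pair was embWPC ALBSF 2 at 14.9 CPM and Ctrl ALBSF 4 at 14.6 CPM. With the library scaling of the edgeR fit (TMM) this pair was nearly level, at 15.311 and 15.307 CPM. Mean levels were 20.6 ± 5.01 CPM in embWPC ALBSF, 35.2 ± 2.37 CPM in Ctrl PMBSF and 12.3 ± 1.85 CPM in Ctrl ALBSF (SD, n = 4 each). In bulk tissue, fewer cells of a type and less RNA per cell cannot be told apart.

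Between the territories of control pups, Tnnt1 was 2.67-fold higher in Ctrl PMBSF than in Ctrl ALBSF, a log2 change of 1.42 ± 0.18 (SE) with a 95% interval of 1.03 to 1.80. The edgeR adjusted p was 0.00147, the rank by p was 14 among 17501 genes, and the change passed the threshold of 0.05 under all 18 alternatives tried (1.36 to 1.52). Of these, 12 leave out 1 library each, 4 of them from embWPC ALBSF, which is not compared here. Tnnt1 was the only member called in this comparison, 1 of 7 tested, where 1.62% of all genes were called. The higher and lower sides each held 142 of the 284 called genes, 0.811% of those tested. With the pool number as a block, 308 genes were called in the fit of all 12 libraries and 857 in a fit of the 8 control libraries alone, which called 230 without the block.

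The log2 change of Tnnt1 in embWPC ALBSF against Ctrl ALBSF was 0.73 ± 0.18 (SE), with a 95% interval of 0.35 to 1.11. The edgeR adjusted p was 0.150, at rank 118, so the gene was not called. DESeq2 did call it (adjusted p = 0.0104), as did edgeR without the count filter (adjusted p = 0.00566), and with single libraries left out the edgeR adjusted p ran from 0.084 to 0.431. Set against Ctrl PMBSF, embWPC ALBSF had a log2 difference of -0.69 ± 0.17 (SE; 95% interval -1.06 to -0.31) and an edgeR adjusted p of 0.294. Here too DESeq2 (adjusted p = 0.0405) and edgeR without the count filter (adjusted p = 0.0198) made the call. The 2 comparisons against Ctrl ALBSF use the same 4 libraries of that group, so their values are given side by side and are not independent of each other.

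No other member was called by edgeR in any comparison. Of the 7 tested members, 0 were called in embWPC ALBSF against Ctrl ALBSF, where 0.0629% of genes were (0.0171% higher and 0.0457% lower). There 2 members had an unadjusted p under 0.05 (Tnnt1 and Calb1) where 9.22% of genes did, and DESeq2 called 1. The libraries of these groups did not overlap for 1 member, Tnnt1, against 3.78% of genes. Against Ctrl PMBSF, 0 of 7 were called in embWPC ALBSF where 0.00571% of genes were, 1 had an unadjusted p under 0.05 where 9.47% did, and DESeq2 called 1. The libraries did not overlap for 1 member, again Tnnt1, against 4.69% of genes. In Ctrl PMBSF against Ctrl ALBSF, 2 members had an unadjusted p under 0.05, where 11.8% of genes did, and 1 did not overlap, where 8.65% did not. The median log2 change of the 7 tested members was -0.16 in embWPC ALBSF against Ctrl ALBSF, 0.30 in Ctrl PMBSF against Ctrl ALBSF and -0.39 in embWPC ALBSF against Ctrl PMBSF, beside medians of -0.01, 0.00 and -0.02 over all genes tested.

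**Figure D2:**
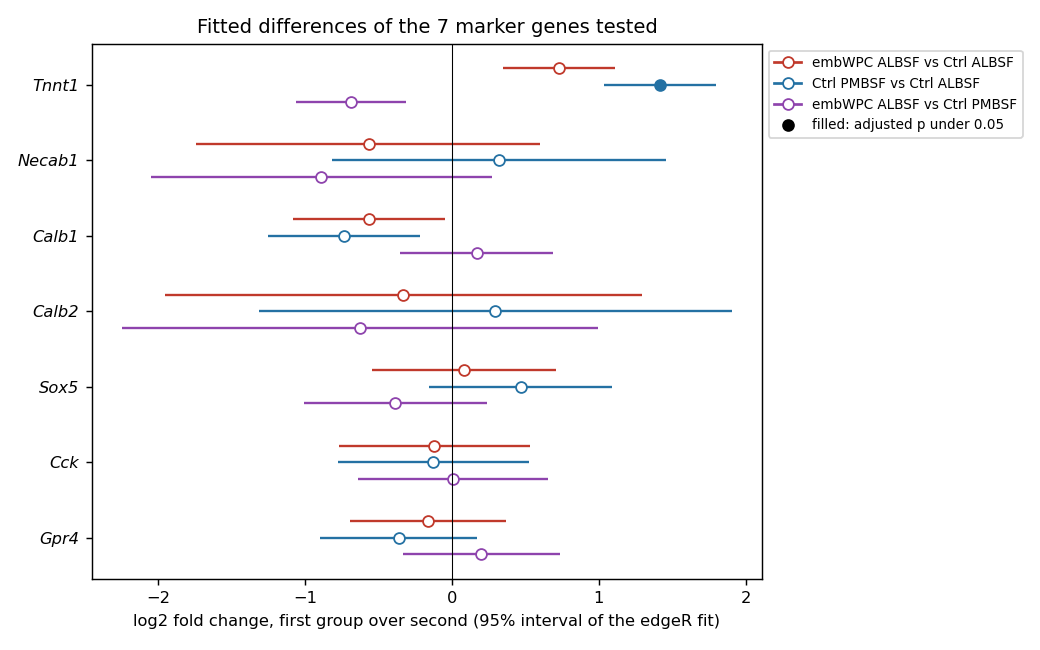
Log2 change of the 7 tested members in the 3 comparisons, from the edgeR fit; points are estimates and lines are 95% intervals. The intervals of Tnnt1 exclude 0 in all 3 comparisons and those of Calb1 in both comparisons against Ctrl ALBSF, and the filled symbol marks the call for Tnnt1 in Ctrl PMBSF against Ctrl ALBSF.

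Tnnt1 is named for skeletal muscle, and the other genes of its complex were not raised with it to the threshold. Of 8 other troponin and tropomyosin genes tested, edgeR and DESeq2 each called 0 in all 3 comparisons. An unadjusted p under 0.05 was found for 0 in embWPC ALBSF against Ctrl ALBSF, 2 in Ctrl PMBSF against Ctrl ALBSF and 1 in embWPC ALBSF against Ctrl PMBSF. Tnni1, the slow skeletal troponin I, averaged 0.666 ± 0.526 CPM in embWPC ALBSF, 1.52 ± 0.675 CPM in Ctrl PMBSF and 0.541 ± 0.331 CPM in Ctrl ALBSF (SD, n = 4 each). Its log2 change between Ctrl PMBSF and Ctrl ALBSF was 1.40 ± 0.51 (SE) with an edgeR adjusted p of 0.253. Tnnc1, a troponin C gene, averaged 2.46 CPM in embWPC ALBSF, 2.98 CPM in Ctrl PMBSF and 1.94 CPM in Ctrl ALBSF. For Tnnc1 that change was 0.52 ± 0.20 (SE; edgeR adjusted p = 0.288). Of the 8 genes, 4 had a positive log2 change in embWPC ALBSF against Ctrl ALBSF, 5 in Ctrl PMBSF against Ctrl ALBSF and 0 in embWPC ALBSF against Ctrl PMBSF. The summed level of 9 skeletal muscle markers was 18.7 to 23.0 CPM in embWPC ALBSF, 22.2 to 25.9 CPM in Ctrl PMBSF and 19.3 to 22.1 CPM in Ctrl ALBSF, most of it from Acta1 at 16.9 to 23.7 CPM. Tnnc2, the fast skeletal troponin C, was at 0 in all 12 libraries.

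RNA of the meninges was measured beside Tnnt1, since the tissue was cut by hand. The summed level of 12 meningeal fibroblast markers was 30.0 to 45.1 CPM in embWPC ALBSF, 39.9 to 122 CPM in Ctrl PMBSF and 41.8 to 51.7 CPM in Ctrl ALBSF, and none of the 12 was at 0 in all libraries. edgeR called 0 of the 12 in all 3 comparisons, with 1, 8 and 10 at an unadjusted p under 0.05 in embWPC ALBSF against Ctrl ALBSF, Ctrl PMBSF against Ctrl ALBSF and embWPC ALBSF against Ctrl PMBSF, where DESeq2 called 0, 2 and 6. The median log2 change of the 12 was -0.62, 1.36 and -1.94 in these comparisons. The 2 DESeq2 calls in Ctrl PMBSF against Ctrl ALBSF had edgeR log2 changes of opposite sign. They were Islr (1.44) and Pdgfra (-0.46), which is also on the list of oligodendrocyte lineage markers. The sum of 8 habenula markers was 91.5 to 115.8 CPM in embWPC ALBSF, 120.0 to 147.5 CPM in Ctrl PMBSF and 72.7 to 104.5 CPM in Ctrl ALBSF. Every Ctrl PMBSF library was above those of the other groups. Nhlh2 was the largest part of that sum, averaging 67.1 CPM in embWPC ALBSF, 99.8 CPM in Ctrl PMBSF and 45.2 CPM in Ctrl ALBSF. Over the libraries Nwd2 had 10.4 to 29.6 CPM, Chrna3 7.66 to 15.0 CPM and Irx2 2.98 to 5.23 CPM. The rest of the list was near the floor, with Tac2 at 0 to 0.627 CPM and Pou4f1 at 0 to 0.178 CPM. Chrnb4 had 0.126 to 0.627 CPM and Gng8 0.418 to 0.850 CPM. Of the 6 habenula markers tested in Ctrl PMBSF against Ctrl ALBSF, edgeR called 1 higher and 1 lower. There 2 of the 6 had a positive log2 change, and the median was -0.11. The sum of 8 astrocyte and radial glia markers was 5326 to 9686 CPM in embWPC ALBSF, 6561 to 7587 CPM in Ctrl PMBSF and 7819 to 10300 CPM in Ctrl ALBSF. Every Ctrl PMBSF library was below those of Ctrl ALBSF. Most of that sum was Fabp7, at 4958 to 9892 CPM over the libraries. Its log2 change in Ctrl PMBSF against Ctrl ALBSF was -0.40 ± 0.22 (SE; edgeR adjusted p = 0.511). There edgeR called 0 of the 8, and their median log2 change was -0.14. The part of these markers in the Tnnt1 difference was not tested. The 10 relay neuron markers summed to 2427 to 2943 CPM in embWPC ALBSF, 2401 to 2715 CPM in Ctrl PMBSF and 2632 to 2826 CPM in Ctrl ALBSF.

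The genes whose library pattern was most like that of Tnnt1 were Tex14, Nhlh2 and Ppp1r17. Likeness was the root-mean-square difference of centred log2 CPM over the 12 libraries, among 12640 genes whose median difference from Tnnt1 was 0.66. Tex14, known for its role in bridges between germ cells, differed by 0.17, Nhlh2, a transcription factor with a helix-loop-helix fold that is also on the habenula list, by 0.19, and Ppp1r17, an inhibitor of protein phosphatases, by 0.22. They were picked for their likeness to Tnnt1 in these same libraries, so their calls describe that choice and add no support. All 3 were called in Ctrl PMBSF against Ctrl ALBSF and in neither comparison with embWPC ALBSF. Tex14 averaged 2.90 CPM in embWPC ALBSF, 4.53 CPM in Ctrl PMBSF and 1.81 CPM in Ctrl ALBSF, and its change between the control territories was 1.23 ± 0.22 (SE, log2; edgeR adjusted p = 0.0102). Nhlh2 averaged 67.1 CPM in embWPC ALBSF, 99.8 CPM in Ctrl PMBSF and 45.2 CPM in Ctrl ALBSF (log2 change between the control territories 1.05 ± 0.18, edgeR adjusted p = 0.00821). Ppp1r17 averaged 30.5 CPM in embWPC ALBSF, 44.5 CPM in Ctrl PMBSF and 19.9 CPM in Ctrl ALBSF (log2 change 1.06 ± 0.16, edgeR adjusted p = 0.00336).

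**Figure D3:**
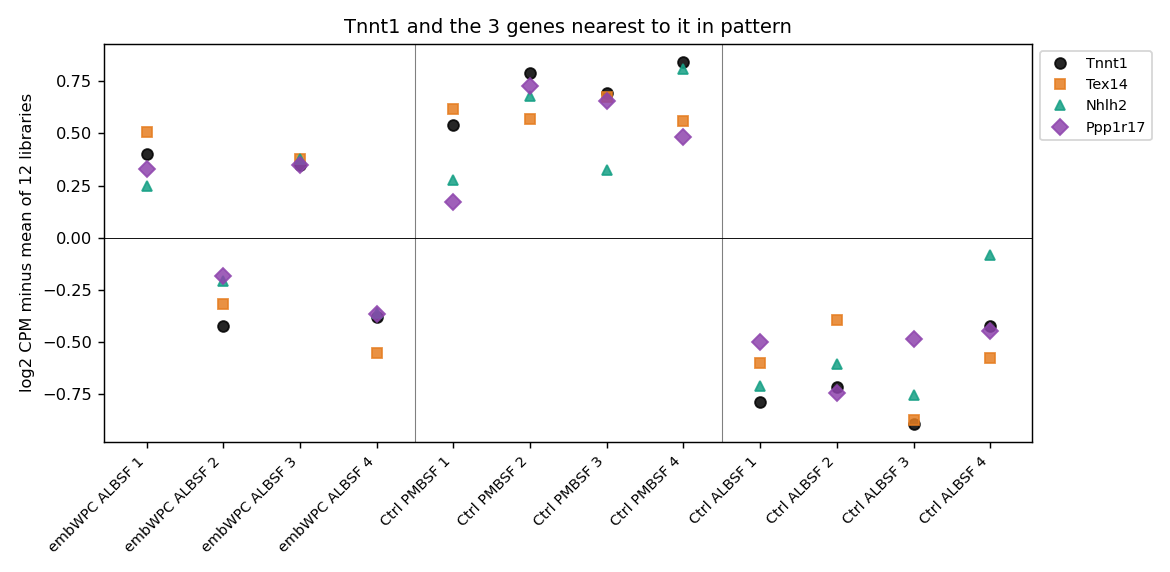
Centred log2 CPM of Tnnt1 and of the 3 genes nearest to it, Tex14, Nhlh2 and Ppp1r17, in each of the 12 libraries. Each of the 3 genes lies within 0.22 of Tnnt1 (root-mean-square over libraries, log2), with the Ctrl PMBSF libraries above and the Ctrl ALBSF libraries below the mean.

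Scn4b, a beta subunit of voltage-gated sodium channels known for the resurgent sodium current of fast-firing neurons, was near the floor. The gene lies at chr9:45049595-45065452 on GRCm39. It had 0, 0, 0 and 3 counts in the embWPC ALBSF libraries, 0, 0, 0 and 2 counts in Ctrl PMBSF, and 1, 1, 0 and 0 counts in Ctrl ALBSF. The 12 libraries held 7 counts in all and 8 libraries held none, where a count of 0 allows up to 3 counts, 0.0869 to 0.105 CPM. This limit covers counting error only. Scn4b was therefore not tested, and no fold change is given. Of other beta subunits, Scn3b had 80.8 to 122 CPM and Scn2b 2.08 to 5.51 CPM. Of 8 other sodium channel genes tested, edgeR and DESeq2 each called 0 in all 3 comparisons, with 1 at an unadjusted p under 0.05 in Ctrl PMBSF against Ctrl ALBSF and 0 in the others.

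Of 10 other genes known from the physiology of adult first-order relay neurons, edgeR called 0 higher and 1 lower in Ctrl PMBSF than in Ctrl ALBSF, and DESeq2 called 1. In embWPC ALBSF, edgeR called 0 against Ctrl ALBSF (3 at an unadjusted p under 0.05, 0 by DESeq2) and 0 against Ctrl PMBSF (2 at an unadjusted p under 0.05, 1 by DESeq2). The list was chosen with earlier results of these data known. The gene was Rorb, a nuclear receptor of sensory nuclei and cortical layer IV, with 56.2 ± 13.8 CPM in embWPC ALBSF, 34.8 ± 5.34 CPM in Ctrl PMBSF and 72.4 ± 6.33 CPM in Ctrl ALBSF (SD, n = 4 each). It fell by 1.17 ± 0.12 (SE, log2) in Ctrl PMBSF against Ctrl ALBSF (edgeR adjusted p = 0.000293). Pvalb, the calcium buffer of fast-firing neurons, averaged 1.73 ± 1.66 CPM in embWPC ALBSF, 2.85 ± 1.68 CPM in Ctrl PMBSF and 2.14 ± 1.41 CPM in Ctrl ALBSF (SD, n = 4 each).

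Necab1, an EF-hand calcium-binding protein used as a label of higher-order nuclei, had 1.56, 5.61, 1.57 and 4.84 CPM in embWPC ALBSF, 16.3, 2.72, 4.29 and 2.98 CPM in Ctrl PMBSF, and 4.45, 8.22, 3.11 and 3.78 CPM in Ctrl ALBSF. The ranges of all groups overlapped, and 1 library, Ctrl PMBSF 1, stood far above the others. The means were 3.40 ± 2.14 CPM in embWPC ALBSF, 6.57 ± 6.51 CPM in Ctrl PMBSF and 4.89 ± 2.29 CPM in Ctrl ALBSF (SD, n = 4 each). The log2 change was -0.57 ± 0.55 (SE; 95% interval -1.74 to 0.60; edgeR adjusted p = 0.777) in embWPC ALBSF against Ctrl ALBSF, -0.95 without embWPC ALBSF 2 and -0.22 without Ctrl ALBSF 2. Between Ctrl PMBSF and Ctrl ALBSF it was 0.32 ± 0.53 (SE; 95% interval -0.82 to 1.46; edgeR adjusted p = 0.882), and without Ctrl PMBSF 1 it was -0.64. Between embWPC ALBSF and Ctrl PMBSF it was -0.89 ± 0.54 (SE; 95% interval -2.05 to 0.27; edgeR adjusted p = 0.628), and 0.08 without that library. The gene, at chr4:14952242-15149794, shares 411 bases with Gm11837, and the counts can be uncertain there because the strand setting is not given in the sources used here.

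Calb1, calbindin-D28k, a calcium buffer of matrix-type relay neurons, was lower in Ctrl PMBSF than in Ctrl ALBSF by the mean, without passing the threshold. It had 6.47, 14.4, 6.72 and 10.7 CPM in embWPC ALBSF, 9.94, 5.97, 7.51 and 12.03 CPM in Ctrl PMBSF, and 13.2, 16.8, 14.1 and 11.2 CPM in Ctrl ALBSF. The ranges overlapped in each comparison, with Ctrl PMBSF 4 above Ctrl ALBSF 4 and embWPC ALBSF 2 above 3 of the Ctrl ALBSF libraries. Mean levels were 9.58 ± 3.75 CPM in embWPC ALBSF, 8.86 ± 2.67 CPM in Ctrl PMBSF and 13.8 ± 2.32 CPM in Ctrl ALBSF (SD, n = 4 each). The log2 change in Ctrl PMBSF against Ctrl ALBSF was -0.73 ± 0.24 (SE; 95% interval -1.25 to -0.21; edgeR adjusted p = 0.195). With the pool number as a block in these 8 control libraries, it was -0.76 with an edgeR adjusted p of 0.0480, and without the count filter the edgeR adjusted p was 0.0332. The block over all 12 libraries (edgeR adjusted p = 0.205) and DESeq2 (adjusted p = 0.0758) did not make the call. The log2 change in embWPC ALBSF against Ctrl ALBSF was -0.57 ± 0.24 (SE; 95% interval -1.08 to -0.05; edgeR adjusted p = 0.510). Between embWPC ALBSF and Ctrl PMBSF it was 0.17 ± 0.24 (SE; 95% interval -0.35 to 0.69; edgeR adjusted p = 0.862).

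Calb2, calretinin, a calcium buffer of midline and intralaminar neurons, varied most among the members. It had 4.01, 68.0, 13.2 and 6.26 CPM in embWPC ALBSF, 68.1, 10.3, 43.3 and 30.9 CPM in Ctrl PMBSF, and 29.3, 12.3, 14.4 and 57.5 CPM in Ctrl ALBSF. The highest library was 17.0-fold above the lowest, and each group held high and low libraries. Its SD within groups was 1.35 on the log2 scale, above 99.7% of the tested genes, whose median was 0.21. Necab1 stood at 0.89 (98.3%), Cck at 0.54 (88.4%), Sox5 at 0.51 (85.7%), Calb1 at 0.41 (77.9%), Gpr4 at 0.36 (73.5%) and Tnnt1 at 0.29 (65.5%).

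With that spread, Calb2 means of 22.9 ± 30.3 CPM in embWPC ALBSF, 38.1 ± 24.2 CPM in Ctrl PMBSF and 28.4 ± 20.9 CPM in Ctrl ALBSF (SD, n = 4 each) did not separate the groups. The log2 change was -0.33 ± 0.76 (SE; 95% interval -1.95 to 1.29; edgeR adjusted p = 0.910) in embWPC ALBSF against Ctrl ALBSF, and -1.89 without embWPC ALBSF 2. It was 0.30 ± 0.75 (SE; 95% interval -1.31 to 1.90; edgeR adjusted p = 0.933) in Ctrl PMBSF against Ctrl ALBSF. Between embWPC ALBSF and Ctrl PMBSF it was -0.63 ± 0.76 (SE; 95% interval -2.24 to 0.99; edgeR adjusted p = 0.824), and -2.18 without embWPC ALBSF 2. All 3 intervals reach at least 0.99 on either side of 0.

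The other calcium-binding EF-hand genes held 1 call. Of 17 tested, edgeR called 1 higher and 0 lower in Ctrl PMBSF than in Ctrl ALBSF and 0 in the other comparisons, which each had 3 at an unadjusted p under 0.05. DESeq2 called 1 in each comparison, Kcnip1 in embWPC ALBSF against Ctrl ALBSF and Kcnip4 in the others. The list's median log2 change was -0.17 in embWPC ALBSF against Ctrl ALBSF, -0.07 in Ctrl PMBSF against Ctrl ALBSF and 0.10 in embWPC ALBSF against Ctrl PMBSF. The edgeR call was Kcnip4, a partner of Kv4 potassium channels, with 25.6 ± 3.85 CPM in embWPC ALBSF, 40.4 ± 4.02 CPM in Ctrl PMBSF and 22.5 ± 2.41 CPM in Ctrl ALBSF (SD, n = 4 each). Its log2 change between the control territories was 0.75 ± 0.13 (SE; edgeR adjusted p = 0.00647).

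Sox5, a transcription factor of the SoxD group known for the timing of neuron fate in the cortex, had 27.5, 53.5, 26.6 and 66.4 CPM in embWPC ALBSF, 101.2, 41.9, 55.5 and 36.9 CPM in Ctrl PMBSF, and 48.2, 48.4, 32.8 and 29.1 CPM in Ctrl ALBSF. The groups overlapped and Ctrl PMBSF 1 was the highest library, as it was for Necab1. Means were 43.5 ± 19.7 CPM in embWPC ALBSF, 58.9 ± 29.3 CPM in Ctrl PMBSF and 39.6 ± 10.1 CPM in Ctrl ALBSF (SD, n = 4 each). The log2 change was 0.08 ± 0.29 (SE; 95% interval -0.54 to 0.71; edgeR adjusted p = 0.944) in embWPC ALBSF against Ctrl ALBSF. It was 0.47 ± 0.29 (SE; 95% interval -0.16 to 1.09; edgeR adjusted p = 0.590) in Ctrl PMBSF against Ctrl ALBSF, and 0.09 without Ctrl PMBSF 1. Between embWPC ALBSF and Ctrl PMBSF it was -0.38 ± 0.29 (SE; 95% interval -1.01 to 0.24; edgeR adjusted p = 0.695).

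Among 15 other Sox genes tested, edgeR called 1 higher and 1 lower in Ctrl PMBSF than in Ctrl ALBSF and 0 in the other comparisons. DESeq2 called 3 in Ctrl PMBSF against Ctrl ALBSF (Sox10, Sox13 and Sox2), where 7 had an unadjusted p under 0.05. It called 0 in embWPC ALBSF against Ctrl ALBSF and against Ctrl PMBSF, where 4 and 3 genes had an unadjusted p under 0.05. Sox13, a SoxD relative of Sox5, averaged 10.6 ± 2.00 CPM in embWPC ALBSF, 14.8 ± 4.62 CPM in Ctrl PMBSF and 8.17 ± 1.58 CPM in Ctrl ALBSF (SD, n = 4 each). It was higher by 0.75 ± 0.17 (SE, log2; edgeR adjusted p = 0.0426) in Ctrl PMBSF than in Ctrl ALBSF. Sox6, another SoxD gene, averaged 10.2 CPM in embWPC ALBSF, 10.7 CPM in Ctrl PMBSF and 10.7 CPM in Ctrl ALBSF. Its log2 change in Ctrl PMBSF against Ctrl ALBSF was -0.10 ± 0.14 (SE; edgeR adjusted p = 0.866). Sox10, a factor of oligodendrocyte precursors, fell by 0.67 ± 0.13 (SE, log2; edgeR adjusted p = 0.0189). Sox5 and its antisense partner Sox5os1 share 1385 bases, and their reads may not be told apart.

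Cck, the precursor of the neuropeptide cholecystokinin, was the most abundant member, above 99.7% of tested genes by mean CPM. It had 2034, 1048, 2060 and 799 CPM in embWPC ALBSF, 1179, 1664, 1576 and 1922 CPM in Ctrl PMBSF, and 1242, 1656, 1810 and 1763 CPM in Ctrl ALBSF. The embWPC ALBSF group held both the 2 highest and the 2 lowest libraries. Mean levels were 1485 ± 657 CPM in embWPC ALBSF, 1585 ± 308 CPM in Ctrl PMBSF and 1618 ± 259 CPM in Ctrl ALBSF (SD, n = 4 each). The log2 change was -0.12 ± 0.30 (SE; 95% interval -0.77 to 0.53; edgeR adjusted p = 0.923) in embWPC ALBSF against Ctrl ALBSF and -0.13 ± 0.30 (SE; 95% interval -0.78 to 0.52; edgeR adjusted p = 0.927) in Ctrl PMBSF against Ctrl ALBSF. For embWPC ALBSF against Ctrl PMBSF it was 0.01 ± 0.30 (SE; 95% interval -0.64 to 0.66; edgeR adjusted p = 0.997).

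The genes that process the peptide and receive it were present at very different levels. Cpe, the carboxypeptidase that trims neuropeptide precursors, had 2783 to 3855 CPM, while the brain receptor gene Cckbr had 0.368 to 2.03 CPM. Of 11 other genes of this list tested, edgeR called 0 in all 3 comparisons, with 3, 4 and 1 at an unadjusted p under 0.05 in embWPC ALBSF against Ctrl ALBSF, Ctrl PMBSF against Ctrl ALBSF and embWPC ALBSF against Ctrl PMBSF. DESeq2 called 2 in Ctrl PMBSF against Ctrl ALBSF and 0 in the others.

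The embWPC ALBSF pools were not alike in these genes. The pools numbered 1 and 3 had the 2 highest Cck levels of all 12 libraries and the 2 lowest Sox5 and Necab1 levels, and they also had more Tnnt1, 24.9 and 24.8 CPM, than pools 2 and 4, with 14.9 and 17.9 CPM. Calb1 was lower in pools 1 and 3, at 6.47 and 6.72 CPM, than in pools 2 and 4, at 14.4 and 10.7 CPM. Across the series, the 4 libraries with the least Cck (embWPC ALBSF 4, embWPC ALBSF 2, Ctrl PMBSF 1 and Ctrl ALBSF 1) ranked 2, 4, 1 and 6 from the highest in Sox5 and 4, 3, 1 and 5 in Necab1. These ranks describe the libraries and carry no test. The labels give no batch, and correlations between same-numbered libraries of embWPC ALBSF and of the controls lay between -0.147 and 0.051 (deviations from the group means).

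**Figure D4:**
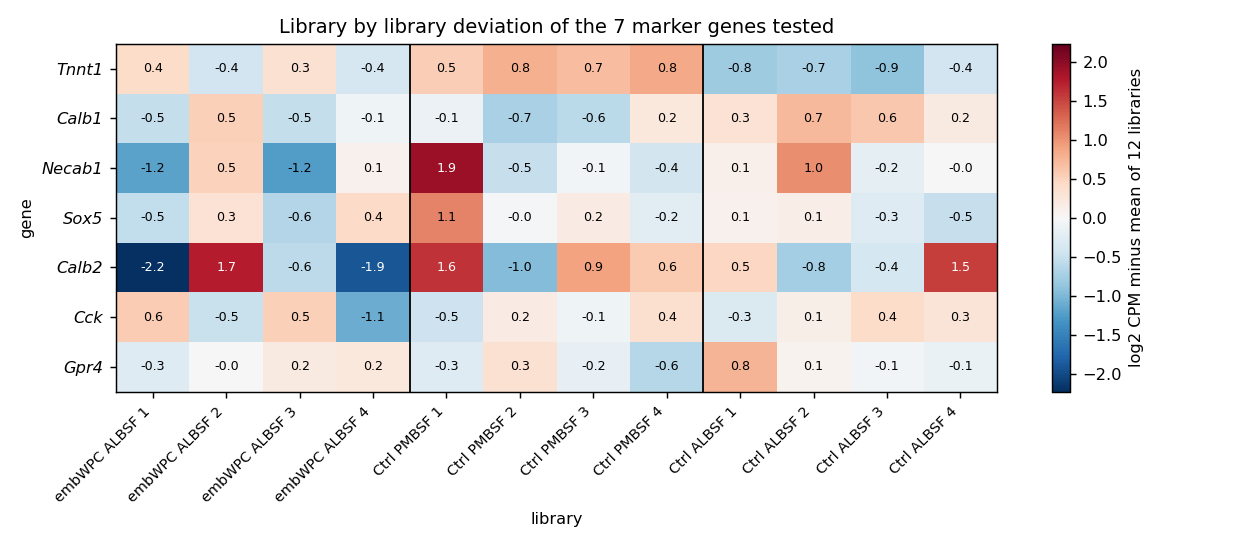
Centred log2 CPM of the 7 tested members in each of the 12 libraries, with embWPC ALBSF first, then Ctrl PMBSF, then Ctrl ALBSF; each value is relative to the mean of that gene over the libraries. Calb2 runs from -2.23 in embWPC ALBSF 1 to 1.74 in embWPC ALBSF 2, and embWPC ALBSF 1 and 3 are high in Cck and low in Sox5 and Necab1.

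Gpr4, a receptor that senses protons and is known from endothelial cells, had a low level in all groups. It had 1.72, 2.24, 2.54 and 3.09 CPM in embWPC ALBSF, 2.03, 2.87, 2.29 and 1.47 CPM in Ctrl PMBSF, and 4.08, 2.46, 2.01 and 1.98 CPM in Ctrl ALBSF. The groups overlapped, with 47 to 120 counts behind each value. Mean levels were 2.40 ± 0.573 CPM in embWPC ALBSF, 2.16 ± 0.579 CPM in Ctrl PMBSF and 2.63 ± 0.989 CPM in Ctrl ALBSF (SD, n = 4 each). The log2 change was -0.16 ± 0.25 (SE; 95% interval -0.69 to 0.37; edgeR adjusted p = 0.862) in embWPC ALBSF against Ctrl ALBSF, and 0.10 without Ctrl ALBSF 1. It was -0.36 ± 0.25 (SE; 95% interval -0.90 to 0.17; edgeR adjusted p = 0.637) in Ctrl PMBSF against Ctrl ALBSF, and -0.11 without Ctrl ALBSF 1. For embWPC ALBSF against Ctrl PMBSF it was 0.20 ± 0.25 (SE; 95% interval -0.34 to 0.73; edgeR adjusted p = 0.833), 0.08 without Ctrl PMBSF 4 and 0.41 without Ctrl PMBSF 2.

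Across libraries, Gpr4 went with the summed levels of 14 endothelial and of 8 mural cell markers. The endothelial sum was 178.5 to 239.7 CPM in embWPC ALBSF, 151.1 to 232.2 CPM in Ctrl PMBSF and 171.9 to 234.3 CPM in Ctrl ALBSF, and none of the markers was at 0 in all libraries. The 3 libraries with the highest endothelial sum, embWPC ALBSF 4, Ctrl ALBSF 1 and Ctrl PMBSF 2, also had the 3 highest Gpr4 levels. Ctrl PMBSF 4 was lowest in both, at 151.1 CPM and 1.47 CPM. The same 3 libraries were highest in the mural cell sum, at 119.2 CPM in embWPC ALBSF 4, 122.0 CPM in Ctrl PMBSF 2 and 122.7 CPM in Ctrl ALBSF 1, and Ctrl PMBSF 4 was lowest at 71.6 CPM. In 10 of 12 libraries the ranks of Gpr4 and of the endothelial sum differed by at most 2, and all these quantities share the library total.

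**Figure D5:**
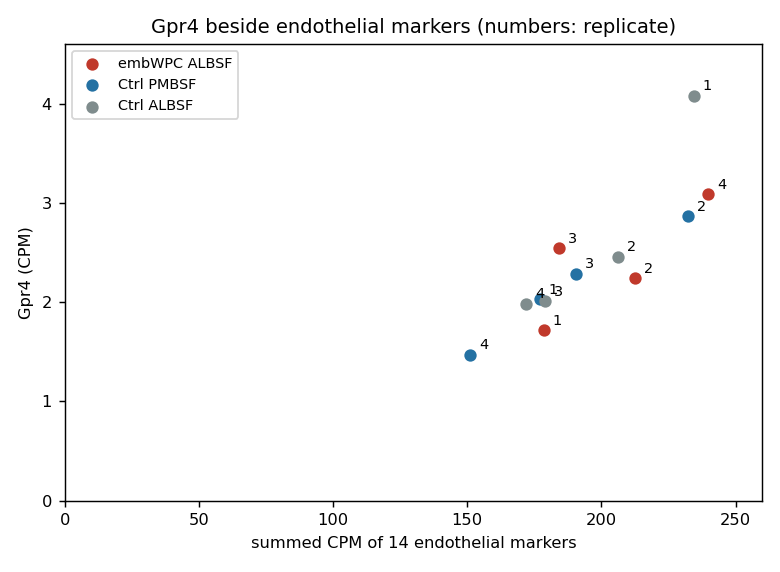
Gpr4 in CPM against the summed CPM of 14 endothelial markers, 1 point per library, coloured by group. Libraries with a high endothelial sum are high in Gpr4, from Ctrl PMBSF 4 at 151.1 and 1.47 CPM to embWPC ALBSF 4 at 239.7 and 3.09 CPM and Ctrl ALBSF 1 at 234.3 and 4.08 CPM.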

How the data were processed

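RNA was measured in 12 libraries of the ventroposterior medial nucleus. The authors deposited unnormalized counts for each Ensembl gene. As tools, the submitters' processing notes and the design text name FastQC 0.11.9 for quality, STAR 2.7.9a for alignment to GRCm39 (mm10 is listed too), SAMtools 1.15, and featureCounts from Subread 2.0.1 for counting. Per the labels, poly-T beads selected the RNA, the RNA integrity number was over 8, and reads were paired and 150 nucleotides long. Strand and multimapping settings are not given in the sources used here, so counts of overlapping genes are uncertain. Totals ran from 28457046 to 34512840 counts. No pair of libraries agreed within sampling noise (lowest chi-square per degree of freedom, 14).

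Symbols and GRCm39 positions came from GENCODE mouse release M39, which held 54749 of the 55359 genes, and promoters from RefSeq (GRCm38.p6), which held 5 of the 8 members. CPM put every library on the same total; levels per kilobase used the union of exons. Counts were fitted in R 4.3.3 with edgeR 4.0.16 and limma 3.58.1 (quasi-likelihood F test, all 12 libraries, group as the only term, filterByExpr, TMM), which left 17501 genes. The biological coefficient of variation was 15.8%. Calls were made under 0.05 after Benjamini-Hochberg adjustment over these genes. They weigh differences between group means against the spread between pools. DESeq2 1.42.0, no count filter, the pool number as a block, and leaving out each library were among the alternatives. The fit was also run on simulated data that gave every gene the same biological coefficient of variation. Those data do not cover genes as variable as Calb2 and Necab1.

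Beside the members, genes were named by rule: the 3 nearest in pattern to each called member (mean of at least 1 CPM, no Gm number, Rik name or pseudogene; log2 CPM with a prior count of 2), and the called genes of 21 lists. Results of some listed genes are not reported here. Genes named uncalled for their level were chosen after their values were seen. Members and lists were chosen with earlier results of these data known. Deviations from the group means correlated at 0.198 to 0.396 for the 4 same-numbered pairs of control libraries. For same-numbered libraries of embWPC ALBSF the range was -0.147 to 0.038 with Ctrl ALBSF and -0.104 to 0.051 with Ctrl PMBSF. Pairs of unlike number were not measured, so whether the pool numbers pair the control libraries was not settled.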

Additional observations from a re-analysis of the deposited data

Results flagged for a closer look

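In 4 of 24 sets of 4 libraries, 1 library lay further from the rest than Dixon's 95% limit. Chance flags about 1 in 20 sets of normally distributed values, a rate that does not hold for counts near 0. Necab1 in Ctrl PMBSF was flagged for library 1 at 16.3 CPM, where the next was 4.29 CPM. Calb2 in embWPC ALBSF was flagged for library 2 at 68.0 CPM, where the next was 13.2 CPM. Scn4b was flagged in embWPC ALBSF for library 4 at 0.0890 CPM, which is 3 counts, and in Ctrl PMBSF for library 4 at 0.0627 CPM, which is 2 counts, with the other 3 libraries of each group at 0. A set with 3 libraries at 0 and 1 above it is always flagged.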

How the results depend on the processing

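Of 378 member values under the alternatives, 352 kept direction and side of the threshold, 0 lost a call, 6 gained one and 20 changed sign. The call of Tnnt1 in Ctrl PMBSF against Ctrl ALBSF held under all 18. The cause of the other changes was not tested. Scn4b did not pass the count filter, with 7 counts over all 12 libraries.

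Without the count filter, 1 member was called in each comparison with embWPC ALBSF and 2 in Ctrl PMBSF against Ctrl ALBSF. Genes called were 121 in embWPC ALBSF against Ctrl ALBSF, 398 in Ctrl PMBSF against Ctrl ALBSF and 72 in embWPC ALBSF against Ctrl PMBSF. In the same order, edgeR with the filter called 11, 284 and 1 genes, and DESeq2 called 175, 507 and 71. DESeq2 called 1 member in each of the 3 comparisons. Shares of the genes tested are not given for the unfiltered fit or for DESeq2. With the replicate block in the 2 groups compared, 2 members (Tnnt1 and Calb1) and 857 genes were called in Ctrl PMBSF against Ctrl ALBSF, 1 gene in embWPC ALBSF against Ctrl ALBSF and 0 in embWPC ALBSF against Ctrl PMBSF. With the block over all 12 libraries, embWPC ALBSF against Ctrl ALBSF had 23 genes and against Ctrl PMBSF 3, and the block changed no other member's call. With Cck, embWPC ALBSF against Ctrl PMBSF turned to -0.04 (12 libraries) and -0.11 (2 groups) under the block.

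Leaving out each library in turn gave 1 to 37 genes called in embWPC ALBSF against Ctrl ALBSF (1 without Ctrl ALBSF 3, 37 without Ctrl PMBSF 1), 127 to 282 in Ctrl PMBSF against Ctrl ALBSF (127 without Ctrl ALBSF 3) and 1 to 3 in embWPC ALBSF against Ctrl PMBSF (3 without Ctrl PMBSF 1). The sign turned for members that were not called. In embWPC ALBSF against Ctrl ALBSF, log2 changes ran from -0.27 to 0.10 for Gpr4, from -1.89 to 0.30 for Calb2, from -0.10 to 0.24 for Sox5 and from -0.35 to 0.13 for Cck. In Ctrl PMBSF against Ctrl ALBSF they ran from -0.64 to 0.67 for Necab1 and from -0.14 to 0.93 for Calb2. In embWPC ALBSF against Ctrl PMBSF they ran from -0.22 to 0.26 for Cck, from -1.27 to 0.082 for Necab1, from -0.57 to 0.004 for Sox5 and from -0.11 to 0.39 for Calb1.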

Other observations

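The genes nearest in library pattern to the members that were not called were added after their values were seen, with the same measure over the 12 libraries. Calb1 was nearest to Tcf7l2, a transcription factor of the thalamus, with a root-mean-square difference of 0.24 on the log2 scale, against a median of 0.52 over 12640 genes. Tcf7l2 averaged 861 ± 204 CPM in embWPC ALBSF, 707 ± 109 CPM in Ctrl PMBSF and 1115 ± 152 CPM in Ctrl ALBSF (SD, n = 4 each), and it fell by 0.76 ± 0.16 (SE, log2; edgeR adjusted p = 0.0301) in Ctrl PMBSF against Ctrl ALBSF. Cck was nearest to Uqcrh (0.14), Atp5mc1 (0.15) and Atp5pf (0.15), which encode subunits of the mitochondrial respiratory chain and ATP synthase, against a median of 0.51. Sox5 was nearest to Lrrtm1 (0.19), a synaptic adhesion protein, against a median of 0.50. Calb2, the most variable member, had no gene nearer than Gbx2 (0.68), a homeobox factor of the thalamus, against a median of 1.29, and Necab1 none nearer than Hcrtr2 (0.38), an orexin receptor, against a median of 0.86. Gpr4 was nearest to Tmem123 (0.16), against a median of 0.38.

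Of the 10 relay neuron markers, edgeR called 1 higher and 1 lower in Ctrl PMBSF than in Ctrl ALBSF, and 3 of the 10 had a positive log2 change. The lower one was Tcf7l2, described above, and the higher one was Rora, a nuclear receptor of sensory thalamus. Rora averaged 656 ± 35.3 CPM in embWPC ALBSF, 675 ± 21.0 CPM in Ctrl PMBSF and 484 ± 27.5 CPM in Ctrl ALBSF (SD, n = 4 each), a log2 change of 0.39 ± 0.09 (SE) between the control territories with an edgeR adjusted p of 0.0436. In embWPC ALBSF against Ctrl ALBSF the log2 change was 0.42 ± 0.09 (SE; edgeR adjusted p = 0.101), and DESeq2 called it. DESeq2 also called Lhx2 there, which went the other way. Lhx2 averaged 1.71 CPM in embWPC ALBSF and 4.53 CPM in Ctrl ALBSF, a log2 change of -1.42 ± 0.37 (SE; edgeR adjusted p = 0.186). Nwd2, on the habenula list, averaged 21.1 ± 2.46 CPM in embWPC ALBSF, 14.5 ± 3.33 CPM in Ctrl PMBSF and 25.1 ± 3.91 CPM in Ctrl ALBSF, and it fell by 0.90 ± 0.13 (SE, log2; edgeR adjusted p = 0.00275) in Ctrl PMBSF against Ctrl ALBSF.

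The summed level of 12 reticular and prethalamic GABAergic markers was 9.87 to 48.4 CPM in embWPC ALBSF, 12.5 to 47.8 CPM in Ctrl PMBSF and 6.24 to 62.1 CPM in Ctrl ALBSF. That of 8 erythroid markers was 402 to 777 CPM in embWPC ALBSF, 798 to 1018 CPM in Ctrl PMBSF and 871 to 1333 CPM in Ctrl ALBSF. Their part in the member values was not tested.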
